A study of Mus musculus with 16 samples.

Results

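The genes that make, import, move, store and export cholesterol were read across 4 groups of immortalised mouse macrophages. The set holds 33 genes, listed by name and chosen with earlier results of these data known. All 33 were found among the 27179 gene identifiers in the count table. They are 7 enzymes of the mevalonate arm and 11 of the squalene and sterol arm of cholesterol synthesis (18 synthesis enzymes in all). A further 4 are the gene of the transcription factor SREBP2 and its regulators, and 4 serve sterol transport and storage. The rest are 6 genes of the liver X receptor (LXR) and of cholesterol efflux, and Ch25h, which encodes an enzyme that makes an oxysterol.

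The cells were iBMDM MyD88-AGF, an immortalised line derived from bone marrow macrophages, with the genotype MyD88-AGF WT in every group. Lipopolysaccharide (LPS), a bacterial cell wall component that macrophages sense through the receptor TLR4, was given at 10 ng/mL for 6 h to 3 of the 4 groups. Responders were LPS-treated cells sorted for high side scatter, a measure of internal granularity, and bystanders were LPS-treated cells sorted for low side scatter. The LPS pool was LPS-treated and not gated, and the untreated cells were neither stimulated nor gated. Ungated cells passed the sorter after the gated ones, so that order and gating cannot be told apart in comparisons of a gate with the pool or with untreated cells. Each group had 4 libraries, with 15287344 to 25193162 counts per library. Whether replicates came from separate cultures is not stated in the labels; p-values here reflect only how far these libraries of 1 cell line scatter, and that scatter may be technical.

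Macrophage markers were read in CPM (a gene's counts as a rate of its library's total, here unscaled). Of 10 such markers 8 were above 1 CPM in every library, Csf1r and Cd68 among them. Mertk was below it in the 4 responder libraries (0.557 to 0.668 CPM) and in LPS pool 2 and 4 (0.706 and 0.785 CPM), and Aif1 in untreated replicate 2 (0.841 CPM). The summed level of the 10 was 4165 to 4193 CPM in untreated libraries, 4437 to 4480 in the LPS pool, 4510 to 4523 in responders and 4097 to 4120 in bystanders. On the scaled CPM used for all gene levels, the LPS response gene Il1b stood at 7.32 ± 1.24 CPM in untreated libraries, 2825 ± 68.0 in the LPS pool, 3265 ± 76.9 in responders and 36.5 ± 32.5 in bystanders (SD, n = 4 each). The wide bystander value reflects replicates 3 and 4, with 64.1 and 65.1 CPM, beside replicates 1 and 2, with 7.79 and 9.03 CPM. Tnf stood at 78.7, 1957, 2219 and 189 CPM and Nos2 at 4.00, 1152, 1457 and 22.5 CPM in the same order of groups. As unscaled CPM, like the sums that follow, the neuron gene Stmn2 was at 2.74 to 5.43 CPM in 6 libraries spread over all groups (LPS pool 3 and 4, bystander 3 and 4, responder 1 and untreated 1) and at or below 0.322 CPM in the other 10. Of 15 neural markers 7 passed 1 CPM in some library and 1 was at 0 throughout; their summed level was 234 to 251 CPM in untreated libraries, 195 to 211 in the LPS pool, 187 to 205 in responders and 237 to 251 in bystanders, and it came mostly from Mbp, Aldoc and Cnp. Of 7 fibroblast markers 3 passed 1 CPM, and they summed to 8.41 to 36.1, 3.13 to 99.3, 7.85 to 27.2 and 2.102 to 78.8 CPM in the same order of groups. Lymphocyte and erythroid markers stayed below 1 CPM each. Of 6 neutrophil and 6 dendritic markers 1 each passed 1 CPM; the former summed to at most 1.88 CPM and the latter to 0.584 to 1.08 CPM in untreated, 3.13 to 5.04 in pool, 3.85 to 4.81 in responder and 7.30 to 8.68 in bystander libraries.

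Cells build cholesterol from acetyl-CoA through mevalonate, squalene and lanosterol. When sterols in the endoplasmic reticulum run low, SCAP carries SREBP2 to the Golgi, where it is cut and freed to switch on the synthesis enzymes; INSIG proteins hold SCAP back when sterols are plentiful. Excess cholesterol yields oxysterols, which activate the nuclear receptors LXR alpha and LXR beta, and these raise the exporters ABCA1 and ABCG1. Macrophages depend on this export because they take up cholesterol with lipoproteins and dead cells.

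Promoter sequence was looked at because SREBP2 acts at sterol regulatory elements next to boxes bound by the factor NF-Y. RefSeq promoters (250 bases before to 50 after the start, GRCm38.p6) were matched for 27 of the 33 genes. For some genes the start used is not the end of the gene span printed below. The Nr1h3 window, 91195067 to 91195366, lies inside its gene span of 91184061 to 91202829. That of Lss opens at 76531355, with the gene span from 76531565. The element core TCACNCCAC, searched on both strands, was found in 1.22% of 27025 promoters and in 1 of the 27, that of Hmgcs1, where it starts 137 bases before the gene start. The box CCAAT, whose letters are not contained in the other motifs searched, was in 37.9% of all promoters and in 20 of the 27, among them 13 of 15 synthesis enzymes; Acat2 and Dhcr7 lacked it. The E-box CACGTG was in 7.24% of promoters and in 5 of the 27 (Hsd17b7, Sc5d, Insig1, Scap and Abca1), and the LXR element, a direct repeat of AGGTCA with 4 bases between, in 0.0111% and in 0 of the 27. A match describes letters in this window and is no evidence of binding. Only the exact letters given were searched. A promoter without a match may still hold an element with other letters, so the absences, those of the LXR element and the sterol element core included, do not show that an element is lacking.

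Shown here are the promoter with the element core (Hmgcs1, chr13:119690101-119690400, plus strand), 1 with a single CCAAT box (Lss, chr10:76531355-76531654, plus strand), and both synthesis promoters without a box (Acat2, chr17:12960676-12960975, minus strand, and Dhcr7, chr7:143822917-143823216, plus strand). Each reads 5′ to 3′ on the strand of its gene, and capitals mark the element core and the CCAAT boxes, which read ATTGG when they lie on the other strand.
Hmgcs1: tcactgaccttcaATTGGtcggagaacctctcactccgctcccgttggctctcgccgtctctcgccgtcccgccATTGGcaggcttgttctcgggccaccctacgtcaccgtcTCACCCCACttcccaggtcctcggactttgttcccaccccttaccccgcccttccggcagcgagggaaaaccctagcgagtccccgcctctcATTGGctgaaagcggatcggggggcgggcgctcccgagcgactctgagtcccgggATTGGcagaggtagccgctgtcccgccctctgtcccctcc
Lss: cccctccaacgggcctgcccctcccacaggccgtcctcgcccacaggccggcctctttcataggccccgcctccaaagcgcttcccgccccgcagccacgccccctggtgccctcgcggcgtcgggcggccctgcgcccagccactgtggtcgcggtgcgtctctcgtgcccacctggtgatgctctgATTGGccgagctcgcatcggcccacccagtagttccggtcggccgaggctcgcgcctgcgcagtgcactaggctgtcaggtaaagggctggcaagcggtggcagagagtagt
Acat2: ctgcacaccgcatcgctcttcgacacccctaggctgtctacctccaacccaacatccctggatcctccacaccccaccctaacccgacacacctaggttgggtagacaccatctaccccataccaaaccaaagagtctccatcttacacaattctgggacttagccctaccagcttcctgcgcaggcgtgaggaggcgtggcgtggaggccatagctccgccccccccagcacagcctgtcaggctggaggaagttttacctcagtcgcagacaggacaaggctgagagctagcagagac
Dhcr7: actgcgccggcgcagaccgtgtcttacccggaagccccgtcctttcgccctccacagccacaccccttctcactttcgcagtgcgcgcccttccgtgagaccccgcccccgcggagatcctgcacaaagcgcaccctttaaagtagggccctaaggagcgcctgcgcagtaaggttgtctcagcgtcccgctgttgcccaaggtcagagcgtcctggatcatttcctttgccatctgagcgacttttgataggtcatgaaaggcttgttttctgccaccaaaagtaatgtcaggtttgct
Hmgcs1 held 4 boxes and Lss 1. Values of these 4 genes follow below with those of their pathway.

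**Figure D1:**
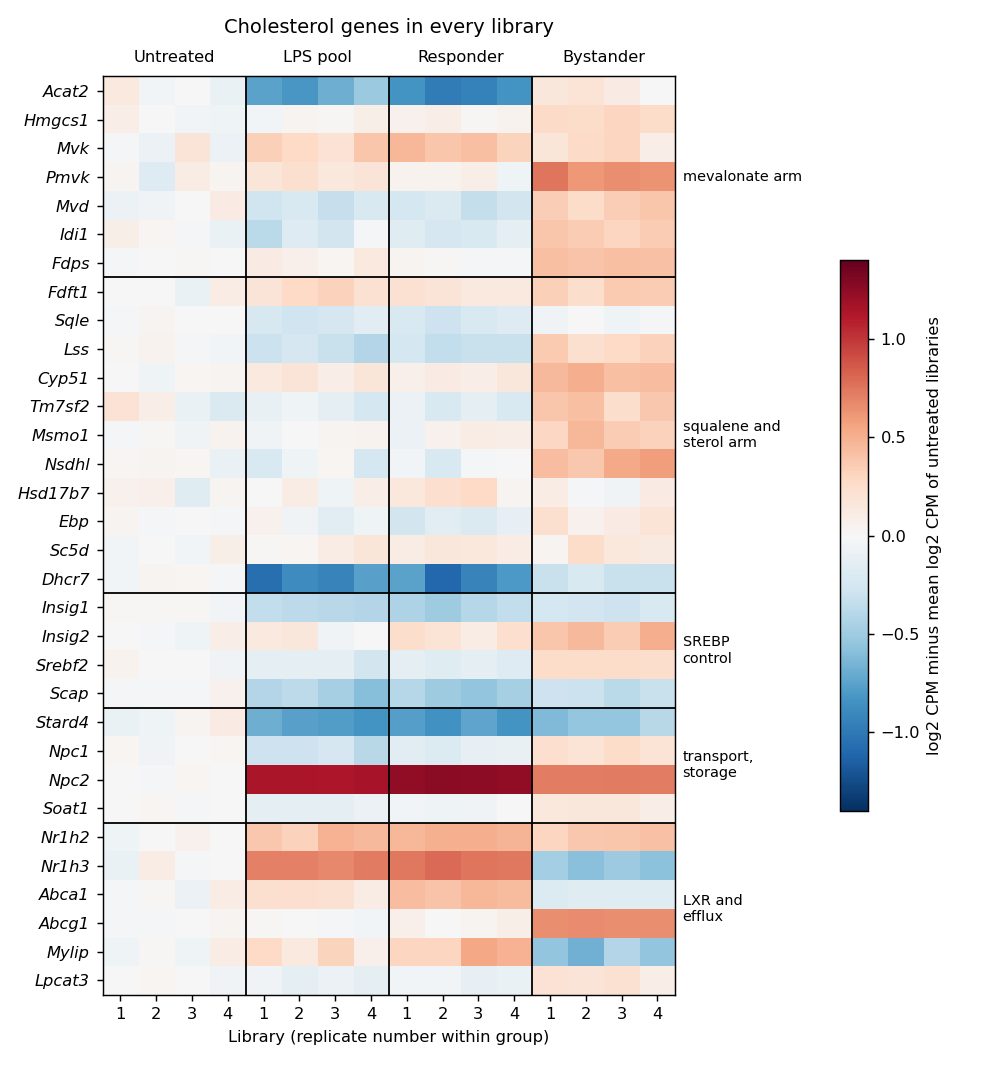
Level of each of the 32 tested genes in each of the 16 libraries, as log2 CPM minus the mean log2 CPM of the 4 untreated libraries (colour scale), with genes in rows by role and libraries in columns by group. Most synthesis enzymes are red in the bystander columns and near white in the responder columns, Acat2, Dhcr7 and Stard4 are blue in the LPS pool and in responders, and Nr1h3 and Abcg1 move in opposite directions in bystanders.

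Synthesis enzymes were lower in responders than in bystanders of the same LPS treatment. Of the 18 enzymes, 15 were lower, 1 was higher (Mvk) and 2 were not called (Hsd17b7 and Sc5d), in edgeR's quasi-likelihood test with Benjamini-Hochberg adjustment over all 12589 genes at adjusted p under 0.05. Over all genes, 34.7% were called higher and 35.3% lower in this comparison. The median log2 difference was -0.38 over the enzymes and -0.01 over all genes tested. All 33 genes together gave 6 higher and 24 lower of the 32 that passed the low-count filter; Ch25h did not pass it. In 24 of the 32 every responder library lay below every bystander library, which held for 32.2% of all genes tested. In bulk RNA, fewer cells with a transcript and less of it per cell cannot be told apart. The neural marker sum, given above, was also lower in responders than in bystanders, but the genes it mostly came from were split. Mbp was lower in responders (35.91 against 47.74 scaled CPM in bystanders), as was Aldoc, while Cnp was higher (85.59 against 60.58). Without the 6 libraries with Stmn2 the enzymes were lower for 14 and higher for 0. That fit does not test the sum: bystander replicates 1 and 2, with little Stmn2, still summed to 237 and 241 unscaled CPM. The part of these markers in the enzyme difference was not tested.

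Against untreated cells most enzymes were higher in bystanders, while responders and the LPS pool were split, when levels are scaled by the trimmed mean (TMM) method, which assumes that most genes do not differ. Bystanders had 15 enzymes higher, 1 lower (Dhcr7) and 2 not called (Sqle and Hsd17b7), with a median log2 difference of 0.31 beside 0.01 over all genes, of which 34.1% were called higher and 32.9% lower. Responders against untreated had 5 higher, 7 lower and 6 not called, with a median of -0.03 beside -0.02 over all genes, of which 36.5% were called higher and 38.5% lower. The LPS pool against untreated had 5 higher, 6 lower and 7 not called, with a median of -0.02 beside -0.03, and background shares of 34.1% higher and 37.8% lower. The 3 comparisons share the untreated libraries.

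These splits depend on how libraries are scaled. TMM scaling factors were 1.17 in untreated libraries, 0.93 to 0.94 in the LPS pool, 0.89 to 0.90 in responders and 1.02 in bystanders. With library totals alone the median of all genes moved to -0.20 for responder against bystander, -0.36 for LPS pool against untreated, -0.41 for responder against untreated and -0.18 for bystander against untreated. The enzymes then stood at 0 higher and 16 lower for responder against bystander, with a median of -0.57, and at 10 higher and 3 lower for bystander against untreated, with a median of 0.12. For LPS pool and for responder against untreated, 16 and 17 enzymes became lower and 0 higher, with medians of -0.35 and -0.41, close to those of all genes. Of all 12589 genes, 2580 were then called higher and 6695 lower for responder against bystander, and 2491 and 6576 for bystander against untreated. For LPS pool and for responder against untreated the numbers were 2216 and 8027, and 2286 and 8238. Among all called genes, the share called higher fell from 49.5% to 27.8% for responder against bystander, from 47.4% to 21.6% for LPS pool against untreated, from 48.7% to 21.7% for responder against untreated and from 50.9% to 27.5% for bystander against untreated.

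**Figure D2:**
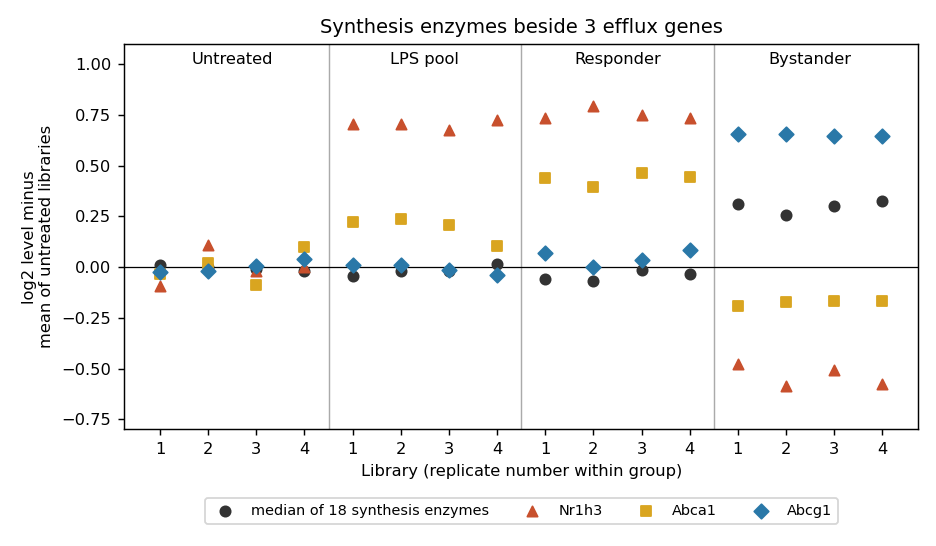
For each library (x axis, replicates 1 to 4 within each group), the median over the 18 synthesis enzymes and the single values of Nr1h3, Abca1 and Abcg1, as log2 level minus the mean of the untreated libraries (y axis, TMM-scaled CPM). The enzyme median lies between 0.26 and 0.33 in bystanders and between -0.07 and 0.02 in all other libraries; Abcg1 is high and Nr1h3 and Abca1 are low in bystanders.

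By library, the enzyme median relative to untreated was 0.31, 0.26, 0.30 and 0.33 on the log2 scale in bystander replicates 1 to 4. It ran from -0.07 to -0.02 in responders, from -0.05 to 0.02 in the LPS pool and from -0.02 to 0.01 in untreated libraries. No bystander library overlapped the others in this median. By group means, the bystander group held the highest level for 14 of the 18 enzymes and for 20 of the 32 genes tested, against 26.3% of all genes. The LPS pool held the highest mean for 0 of the 32, against 11.8% of all genes, and lay nearer to the responder mean than to the bystander mean for 28 of them, against 77.9% of all genes.

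Within the mevalonate arm, 6 of 7 enzymes were lower in responders than in bystanders, and all 7 were higher in bystanders than in untreated cells. Acat2 (chromosome 17, 12943042 to 12960725), the cytosolic thiolase that makes acetoacetyl-CoA at the start of the pathway, differed most. In replicates 1 to 4 it stood at 50.4, 44.4, 45.4 and 42.9 CPM in untreated libraries, 27.2, 26.0, 28.4 and 31.8 in the LPS pool, 25.6, 23.3, 23.7 and 25.7 in responders and 51.0, 52.4, 49.6 and 45.5 in bystanders. Responders and pool were low and did not reach the range of the other groups. Acat2 was 2.01-fold lower in responders than in bystanders (log2 difference -1.01, SE 0.06, edgeR adjusted p = 4.89e-22) and 1.63-fold lower in the LPS pool than in untreated cells (adjusted p = 6.11e-16). Its small difference between bystanders and untreated cells, 0.11 on the log2 scale (adjusted p = 0.0445), was -0.08 with library totals alone and was lost without each of 6 libraries in turn (edgeR adjusted p up to 0.2) and with no low-count filter (0.0666).

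Hmgcs1 (chromosome 13, 119690351 to 119708260) encodes the synthase that makes HMG-CoA, the substrate of the rate-limiting step. Its level was 74.7, 69.9, 68.0 and 66.8 CPM in untreated libraries, 67.9, 71.5, 70.8 and 74.0 in the LPS pool, 72.7, 74.6, 70.7 and 72.3 in responders and 84.2, 83.2, 86.0 and 83.4 in bystanders. Bystander libraries stood above the other 12, which overlapped each other. The gene was 1.16-fold lower in responders than in bystanders (log2 -0.21, SE 0.03, edgeR adjusted p = 7.76e-08) and 1.21-fold higher in bystanders than in untreated cells (adjusted p = 1.7e-10). For the LPS pool against untreated the log2 difference was 0.02 (95% interval -0.05 to 0.09, edgeR adjusted p = 0.569), but -0.31 with library totals alone.

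Pmvk (chromosome 3, 89454541 to 89469014), the kinase that phosphorylates phosphomevalonate, had 18.7, 16.1, 19.5 and 18.7 CPM in untreated libraries, 20.5, 21.3, 20.1 and 20.6 in the LPS pool, 18.9, 18.9, 19.4 and 17.5 in responders and 30.5, 27.8, 28.5 and 28.2 in bystanders. Bystanders stood above all other libraries, and the LPS pool lay just above the overlapping untreated and responder libraries. The gene was 1.54-fold lower in responders than in bystanders (log2 -0.62, SE 0.06, edgeR adjusted p = 7.24e-15) and 1.58-fold higher in bystanders than in untreated cells (adjusted p = 8.58e-16). Mvd (chromosome 8, 122433596 to 122443422), the decarboxylase after it, had 37.7, 38.5, 39.9 and 43.0 CPM in untreated libraries, 32.8, 34.2, 31.8 and 34.1 in the LPS pool, 33.4, 34.6, 31.6 and 33.1 in responders and 50.4, 47.6, 50.4 and 52.0 in bystanders. Pool and responder ranges overlapped below the untreated range, and bystanders were above it. Mvd was 1.51-fold lower in responders than in bystanders (log2 -0.60, SE 0.05, edgeR adjusted p = 2.23e-18).

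The other 3 enzymes of this arm differed by less than 1.5-fold between the gates. Idi1, which isomerises isopentenyl diphosphate, was 1.45-fold lower in responders than in bystanders (35.2 ± 0.855 CPM in bystanders, 24.3 ± 0.751 in responders, SD, n = 4; edgeR adjusted p = 1.08e-13). Fdps, the farnesyl diphosphate synthase gene, stood at 184 ± 1.37 CPM in bystanders and at 138 ± 2.44 in responders, beside 138 ± 1.32 in untreated libraries (adjusted p = 1.2e-22 for responder against bystander). Mvk, the mevalonate kinase gene, went the other way: it was 1.14-fold higher in responders than in bystanders (edgeR adjusted p = 0.0127). That call was lost without the 6 libraries with Stmn2 (adjusted p = 0.108), without both bystander libraries with Il1b (0.0547) and without bystander replicate 4 (0.0668), and the log2 difference was -0.002 with library totals alone.

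In the squalene and sterol arm, 9 of 11 enzymes were lower in responders than in bystanders and 0 higher, with differences from -0.60 to 0.14 on the log2 scale. Lss (chromosome 10, 76531565 to 76557139), lanosterol synthase, which closes the sterol rings, had 39.8, 40.7, 38.5 and 38.4 CPM in untreated libraries, 31.9, 33.6, 31.6 and 29.6 in the LPS pool, 33.2, 31.0, 31.7 and 31.6 in responders and 50.9, 45.8, 47.7 and 49.2 in bystanders. Its untreated libraries lay between the overlapping LPS pool and responders below and the bystanders above. Lss was 1.52-fold lower in responders than in bystanders (log2 -0.60, SE 0.05, edgeR adjusted p = 1.24e-18). An antisense gene within it, 4930483K19Rik, held 280 reads over all libraries beside 12354 for Lss.

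Dhcr7 (chromosome 7, 143823167 to 143848410) encodes the reductase of the last step to cholesterol in one branch of the pathway. It stood at 30.7, 32.3, 32.05 and 30.9 CPM in untreated libraries, 15.2, 17.1, 16.5 and 18.5 in the LPS pool, 18.8, 14.7, 16.4 and 18.01 in responders and 25.3, 27.2, 25.3 and 25.4 in bystanders. All 12 LPS-treated libraries were below the untreated range, and bystanders lay between. Dhcr7 was 1.87-fold lower in the LPS pool than in untreated cells (log2 -0.91, SE 0.06, edgeR adjusted p = 1.98e-20) and 1.51-fold lower in responders than in bystanders (adjusted p = 3.31e-13). It was the 1 synthesis enzyme that was lower in bystanders than in untreated cells (log2 -0.29, SE 0.06, adjusted p = 6.44e-06).

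The other sterol enzymes differed by less than 1.5-fold between the gates, and 7 of 9 were called, all lower in responders. Cyp51, the lanosterol demethylase gene, stood at 87.3 ± 2.46 CPM in bystanders against 68.6 ± 1.78 in responders and 63.8 ± 1.87 in untreated libraries. Nsdhl, which acts in sterol demethylation, stood at 27.1 ± 1.81 CPM in bystanders against 18.6 ± 1.23 in responders (log2 -0.55, edgeR adjusted p = 3.87e-12). Msmo1, Ebp, Tm7sf2 and Sqle, the squalene epoxidase gene, were lower in responders by -0.31, -0.33, -0.52 and -0.19 on the log2 scale, each past the same test. Fdft1, squalene synthase, was lower by -0.16 (adjusted p = 0.00166), a call lost without the 6 libraries with Stmn2 (adjusted p = 0.0531) and without both bystander libraries with Il1b (0.0927). Fdft1 also overlaps Ctsb on the other strand over 774 bases, and Ctsb held 1365107 reads beside 11081 for Fdft1, so its level is uncertain if strand was not used in counting. Hsd17b7 (0.14, 95% interval 0.01 to 0.27, edgeR adjusted p = 0.0549) and Sc5d (-0.02, interval -0.11 to 0.08, adjusted p = 0.761) were not called; Hsd17b7 was called higher in 5 alternatives, at adjusted p of 0.0146 to 0.049.

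**Figure D3:**
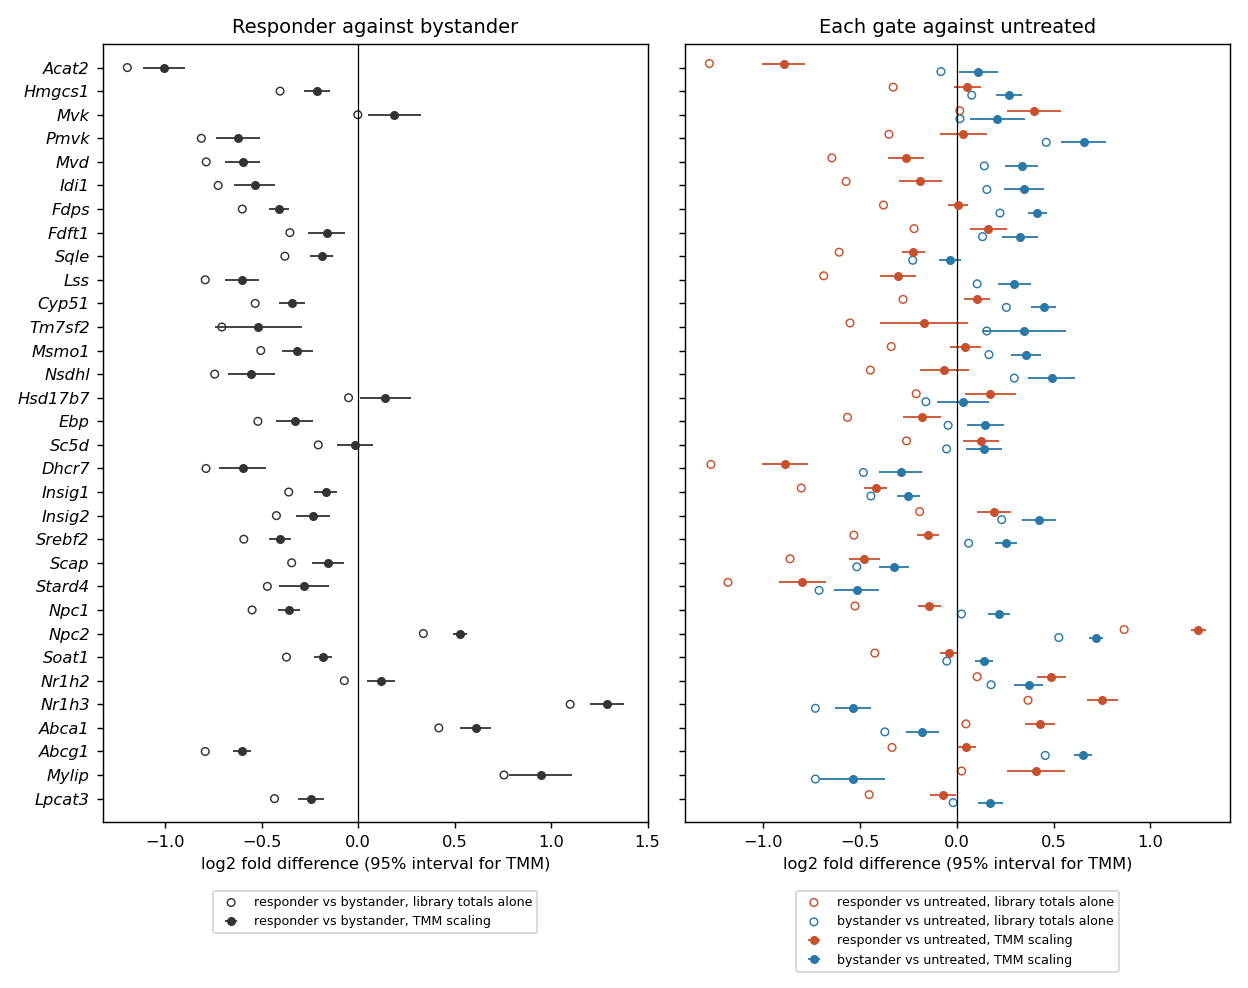
Log2 fold difference of each of the 32 tested genes (x axis) for responder against bystander (left) and for each gate against untreated (right). Filled points with 95% intervals are TMM-scaled fits and open circles the same difference with library totals alone, which lie to the left of the filled points; Acat2, Pmvk, Mvd, Lss, Dhcr7 and Abcg1 lie on the lower side and Nr1h3, Mylip, Abca1 and Npc2 on the higher side under both in the left panel.

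All 4 genes of SREBP2 and its control were lower in responders than in bystanders, by -0.40 to -0.16 on the log2 scale. Srebf2 (chromosome 15, 82147269 to 82205379), which encodes SREBP2 itself, had 123, 120, 119 and 114 CPM in untreated libraries, 109, 108, 108 and 99.0 in the LPS pool, 109, 106, 109 and 105 in responders and 142, 141, 142 and 141 in bystanders. LPS pool and responders were low and overlapped, untreated libraries were above them and bystanders highest, with no overlap. Srebf2 was 1.32-fold lower in responders than in bystanders (log2 -0.40, SE 0.03, edgeR adjusted p = 7.59e-20) and 1.19-fold higher in bystanders than in untreated cells (adjusted p = 2.67e-12). The microRNA gene Mir33, which lies within Srebf2, held 2 reads.

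Insig1 (chromosome 5, 28071412 to 28078662), a sterol-sensing anchor of SCAP and itself a target of SREBP2, did not share the bystander rise. It had 119, 120, 120 and 115 CPM in untreated libraries, 93.2, 91.6, 90.6 and 89.2 in the LPS pool, 87.7, 83.6, 89.6 and 93.0 in responders and 99.97, 98.4, 97.0 and 103 in bystanders. All LPS-treated libraries were below the untreated range, and bystanders were above the overlapping pool and responders. Against untreated cells Insig1 was 1.34-fold lower in responders, 1.30-fold lower in the LPS pool and 1.19-fold lower in bystanders (edgeR adjusted p = 1.31e-19, 4.95e-17 and 3.83e-11). Scap was also lower in all 3, by -0.45 in the pool, -0.48 in responders and -0.32 in bystanders on the log2 scale. Insig2, the second anchor gene, was highest in bystanders, at 56.5 ± 2.70 CPM against 48.0 ± 2.06 in responders and 42.0 ± 1.90 in untreated libraries. The ratio of Insig2 to Insig1 within a library, which library scaling cannot move, was above its untreated mean by 0.63 to 0.72 on the log2 scale in bystanders, 0.51 to 0.69 in responders and 0.33 to 0.53 in the pool, against -0.08 to 0.13 among untreated libraries.

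Transport and storage genes were split. Stard4 (chromosome 18, 33199138 to 33213862), a soluble sterol carrier, had 25.7, 26.4, 28.3 and 29.7 CPM in untreated libraries, 17.1, 16.2, 15.95 and 15.4 in the LPS pool, 16.1, 15.3, 16.5 and 15.4 in responders and 17.9, 18.9, 18.9 and 20.9 in bystanders. Every LPS-treated library was below the untreated range, bystanders included. Stard4 was 1.70-fold lower in the LPS pool (log2 -0.77, SE 0.06, edgeR adjusted p = 5.22e-17), 1.74-fold lower in responders and 1.43-fold lower in bystanders than in untreated cells.

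Npc2 (chromosome 12, 84754559 to 84773112), the soluble lysosomal protein that hands cholesterol to NPC1, rose most with LPS among the 32. Its level was 395, 386, 399 and 390 CPM in untreated libraries, 869, 867, 864 and 872 in the LPS pool, 931, 940, 935 and 925 in responders and 643, 647, 650.3 and 647 in bystanders. The 4 groups did not overlap. Npc2 was 2.21-fold higher in the LPS pool than in untreated cells (log2 1.15, SE 0.02, edgeR adjusted p = 5.97e-53), 1.65-fold higher in bystanders than in untreated cells and 1.44-fold higher in responders than in bystanders (adjusted p = 4.82e-35). Npc1, the membrane partner, went the other way between the gates, at 109 ± 3.18 CPM in responders and 140 ± 3.48 in bystanders (log2 -0.36, adjusted p = 3.57e-17). Npc1 shares 8982 bases with Rmc1 on the other strand, which held 12346 reads beside 38185. The ratio of Npc2 to Npc1 within a library was above its untreated mean by 1.34 to 1.46 on the log2 scale in responders and by 0.47 to 0.53 in bystanders. Soat1, which esterifies cholesterol for storage, stood at 231 ± 4.85 CPM in bystanders and 204 ± 3.07 in responders (log2 -0.18, adjusted p = 2.31e-10).

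LXR and efflux genes did not move as a block. Between the gates 4 of 6 were higher in responders (Nr1h3, Mylip, Abca1 and Nr1h2) and 2 were lower (Abcg1 and Lpcat3). Nr1h3 (chromosome 2, 91184061 to 91202829), which encodes LXR alpha, had 35.3, 40.6, 37.2 and 37.6 CPM in untreated libraries, 61.4, 61.4, 60.1 and 62.2 in the LPS pool, 62.6, 65.2, 63.4 and 62.7 in responders and 27.0, 25.1, 26.5 and 25.2 in bystanders. Pool and responders were high, untreated libraries lay between and bystanders were lowest, with no overlap of bystanders with any other group. Nr1h3 was 2.45-fold higher in responders than in bystanders (log2 1.29, SE 0.04, edgeR adjusted p = 1.13e-35), 1.63-fold higher in the LPS pool than in untreated cells (adjusted p = 2.61e-23) and 1.45-fold lower in bystanders than in untreated cells (adjusted p = 3.56e-16). Its end shares 18 bases with Acp2 on the other strand. Nr1h2, which encodes LXR beta, was higher than untreated in all 3 LPS groups, by 0.41, 0.49 and 0.37 on the log2 scale in pool, responders and bystanders. The pool difference was not called with library totals alone (0.08, edgeR adjusted p = 0.052). Between the gates the Nr1h2 difference of 0.12 (edgeR adjusted p = 0.00304) turned to -0.07 with library totals alone.

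**Figure D4:**
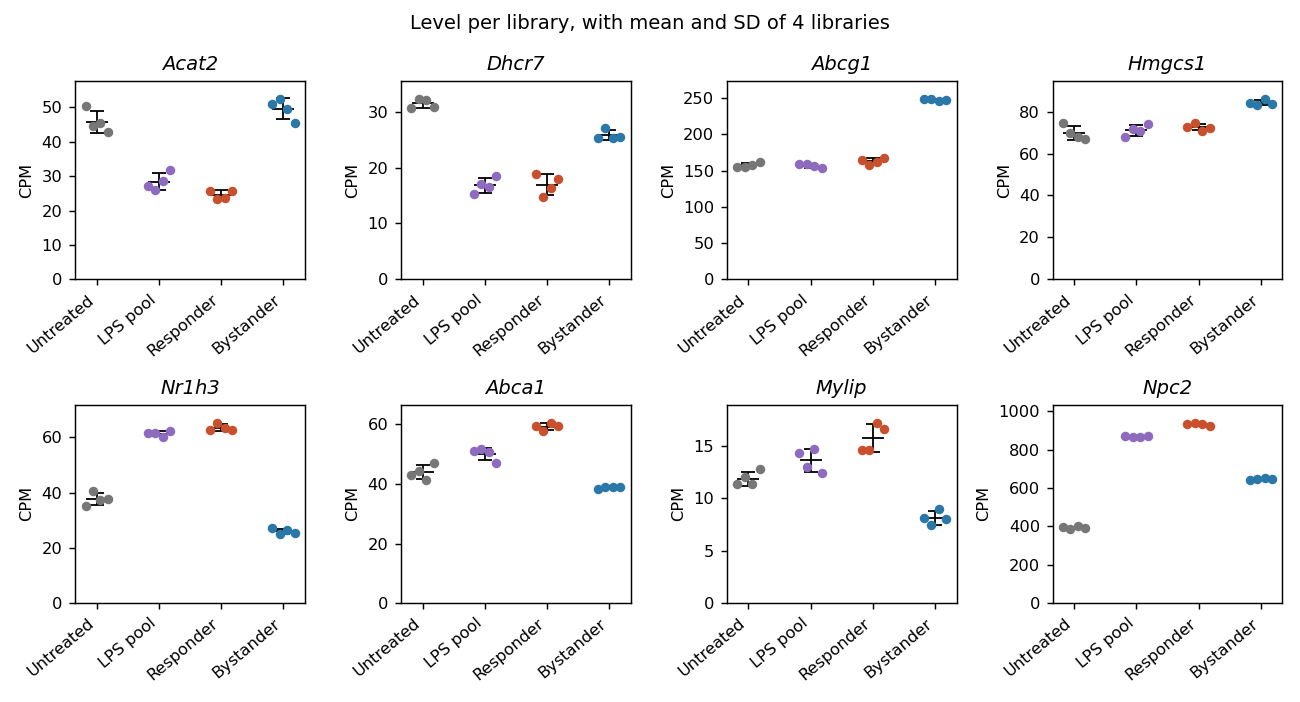
Level in CPM (TMM-scaled, y axis from 0) of 8 genes in each library (points), by group, with the mean and SD of 4 libraries. Acat2 is low in the LPS pool and in responders, Dhcr7 in all LPS groups, Abcg1 and Hmgcs1 are highest in bystanders, and Nr1h3, Abca1 and Mylip are lowest in bystanders.

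The exporters Abca1 and Abcg1, both known LXR targets, moved in opposite directions. Abca1 (chromosome 4, 53030789 to 53159988), which loads cholesterol onto lipid-poor apolipoproteins, had 42.9, 44.5, 41.4 and 47.0 CPM in untreated libraries, 51.2, 51.7, 50.8 and 47.2 in the LPS pool, 59.4, 57.7, 60.6 and 59.6 in responders and 38.4, 38.9, 39.1 and 39.1 in bystanders. Responders were above and bystanders below every other library. Abca1 was 1.53-fold higher in responders than in bystanders (log2 0.61, SE 0.04, edgeR adjusted p = 1.08e-20) and 1.35-fold higher in responders than in untreated cells (adjusted p = 4.6e-15), though the latter log2 difference was 0.05 with library totals alone (adjusted p = 0.271). Its rise in the LPS pool, 0.19 on the log2 scale, turned to -0.13 with library totals alone.

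Abcg1 (chromosome 17, 31057694 to 31117984), which exports cholesterol to mature lipoproteins, had 155, 156, 158 and 162 CPM in untreated libraries, 159, 159, 156 and 154 in the LPS pool, 165, 158, 162 and 167 in responders and 248, 249, 247 and 247 in bystanders. Bystanders stood far above the other 12 libraries, which overlapped. Abcg1 was 1.52-fold lower in responders than in bystanders (log2 -0.60, SE 0.02, edgeR adjusted p = 3.76e-32) and 1.57-fold higher in bystanders than in untreated cells (adjusted p = 5.13e-34). Between responders and untreated cells the log2 difference was 0.05 (edgeR adjusted p = 0.0671), but -0.34 when scaled by library totals. Within a library, the ratio of Abcg1 to Abca1 was 0.81 to 0.85 above its untreated mean on the log2 scale in bystanders and -0.43 to -0.36 relative to it in responders, with untreated libraries at -0.06 to 0.09.

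Mylip (chromosome 13, 45389742 to 45411940), a ubiquitin ligase that degrades the LDL receptor and is another LXR target, had 11.3, 11.97, 11.3 and 12.7 CPM in untreated libraries, 14.3, 13.0, 14.6 and 12.4 in the LPS pool, 14.6, 14.6, 17.2 and 16.6 in responders and 8.07, 7.39, 8.93 and 8.03 in bystanders. Bystanders were below every other library, and pool and untreated libraries overlapped. Mylip was 1.93-fold higher in responders than in bystanders (log2 0.95, SE 0.08, edgeR adjusted p = 3.7e-16) and 1.45-fold lower in bystanders than in untreated cells (adjusted p = 7.85e-08). Its difference between pool and untreated, 0.20 on the log2 scale (adjusted p = 0.0235), was lost without the 6 libraries with Stmn2 (adjusted p = 0.0948), without LPS pool 1 (0.0659), LPS pool 3 (0.0783), untreated 1 (0.0582) or untreated 3 (0.0536), and was -0.13 with library totals alone. Lpcat3, a phospholipid-remodelling LXR target, stood at 82.3 ± 3.29 CPM in bystanders and 69.4 ± 1.81 in responders (log2 -0.24, edgeR adjusted p = 3.09e-09); it shares 347 bases with Emg1 on the other strand, which held 37730 reads beside 23727.

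Ch25h (chromosome 19, 34473783 to 34475148), which makes an oxysterol and is known to be induced by LPS in macrophages, was close to the detection limit. It had 1, 0, 1 and 0 reads in untreated libraries, 5, 7, 6 and 9 in the LPS pool, 15, 8, 6 and 14 in responders and 3, 4, 12 and 5 in bystanders. All 12 LPS-treated libraries held more reads than any untreated library, while responders and bystanders overlapped. In two-sided exact permutation tests of the CPM (n = 4 each), each LPS group against untreated gave p = 0.0286, the smallest this design allows, and 0.0571 after adjustment over the 6 comparisons. Responder against bystander gave an exact permutation p = 0.114 (adjusted 0.171), with means of 0.515 and 0.271 CPM.

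Responders differed from the LPS pool in these genes about as often as in all genes tested. Of the 32, 6 were higher (Insig2, Soat1, Npc2, Npc1, Mylip and Abca1), 3 lower (Acat2, Fdps and Ebp) and 23 not called, and none reached 1.5-fold; 16% of all genes were called higher and 9.49% lower. Scaled by library totals alone, these counts became 3 and 7, and among all calls the share higher fell from 62.7% to 30.6%. That scaling called 1073 of all 12589 genes higher and 2438 lower. Leaving out 1 library reduced the higher count to 3 (without responder 4) and the lower count to 1 (without LPS pool 4, responder 2 or responder 3). Without the 6 libraries with Stmn2, 5 were higher and 1 lower. Bystanders differed from the pool in 23 higher and 4 lower of the 32 (14 and 0 of the 18 enzymes), beside 34.1% and 32.9% of all genes. With library totals alone they were 26 and 4, and the share of calls that were higher rose from 50.9% to 68.4%. Over all 12589 genes, that scaling called 5951 higher and 2755 lower.

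Of the 32 genes, 9 were called at 1.5-fold or more in either direction for responder against bystander, beside 24% of all genes. The count was 5 for the LPS pool against untreated (27.4% of all genes), 5 for responders against untreated (32.7%), 3 for bystanders against untreated (21.9%), 8 for bystanders against the pool (20.3%) and 0 for responders against the pool (1.02%). Over all 32 genes, the LPS pool against untreated gave 10 higher and 13 lower, responders 11 higher and 12 lower, and bystanders 23 higher and 7 lower. With library totals alone these counts were 2 and 26, 3 and 26, and 15 and 10. Beside them, 2216 of all 12589 genes were called higher and 8027 lower for the pool. For responders the numbers were 2286 and 8238, and for bystanders 2491 and 6576.

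Neighbouring pathways were read from lists beside these members. Of 10 tested fatty acid genes that SREBPs control, 0 were higher and 8 lower in responders than in bystanders, beside 34.7% and 35.3% of all genes. With library totals alone 10 were lower, and 6695 of all 12589 genes were also called lower. The desaturase genes Scd1 and Scd2 were 2.45-fold and 2.27-fold lower there (edgeR adjusted p = 2.09e-41 and 2.19e-50). Scd1 stood at 128 ± 5.57 CPM in untreated libraries, 66.0 ± 2.23 in the LPS pool, 54.2 ± 2.03 in responders and 133 ± 3.78 in bystanders (SD, n = 4). Scd2 stood at 749 ± 10.9, 278 ± 5.82, 211 ± 4.02 and 478 ± 2.55 CPM in the same order. Bystander Scd1 overlapped untreated, while bystander Scd2 lay between untreated and responders. Most of the list was lower in bystanders than in untreated cells, unlike the synthesis enzymes. Of the 10 genes, 2 were higher and 7 lower there, with a median log2 difference of -0.33, beside 34.1% and 32.9% of all genes. With library totals alone 1 was higher and 9 lower, beside 2491 higher and 6576 lower of all 12589 genes.

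Among 13 tested genes of lipoprotein uptake and lysosomal export, 6 were higher and 6 lower in responders than in bystanders, which became 5 and 8 with library totals alone. Msr1, the scavenger receptor gene, stood at 69.5 ± 1.58 CPM in untreated libraries, 435.5 ± 9.06 in the LPS pool, 512.5 ± 6.68 in responders and 141 ± 3.17 in bystanders, 3.63-fold higher in responders than in bystanders (edgeR adjusted p = 1.82e-59). Gramd1a, which encodes a sterol carrier at membrane contacts, stood at 60.1 ± 4.36, 137 ± 5.26, 156 ± 5.04 and 52.1 ± 4.53 CPM and was 2.97-fold higher (adjusted p = 4.73e-15). Both followed the order responder, pool, then the other groups.

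Of 13 tested genes of ester hydrolysis, efflux and oxysterols, 1 was higher and 5 lower in responders than in bystanders. With library totals alone 1 was higher and 11 lower. Hsd3b7, a bile acid and oxysterol enzyme gene, stood at 34.7 ± 0.521 CPM in untreated libraries, 26.1 ± 1.30 in the LPS pool, 24.9 ± 0.680 in responders and 52.5 ± 0.498 in bystanders, 2.11-fold lower in responders than in bystanders (edgeR adjusted p = 1.39e-30). Gpr183, the receptor gene for an oxysterol made from the product of Ch25h, stood at 47.2 ± 1.58, 16.1 ± 0.525, 10.1 ± 0.939 and 20.9 ± 1.73 CPM and was 2.06-fold lower (adjusted p = 3.1e-21). Of 9 further synthesis and isoprenoid genes 1 was higher and 4 lower, which became 0 and 7 with library totals alone, 0 and 4 with DESeq2 and 0 and 5 without the 6 libraries with Stmn2. Of 9 genes of SREBP processing and sterol sensing 3 were higher and 6 lower, and 2 and 6 with library totals alone. The shares of all genes given above, 34.7% higher and 35.3% lower, hold beside the counts of the TMM-scaled edgeR fit only. With library totals alone, 2580 of 12589 genes were called higher and 6695 lower in responders than in bystanders. These numbers were 4320 and 4269 with DESeq2, and 4028 and 4026 of 12642 without the 6 libraries with Stmn2.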

How the data were processed

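RNA from 4 groups of 4 libraries was sequenced by a service provider, per the labels' protocols. The authors deposited a single table of raw counts, reads per gene, covering every library. Tools named in the submitters' processing notes were cutadapt 3.7 and fastp 1.1.0 for reads, HISAT2 2.2.2 and, for counting, featureCounts 2.1.1, on GRCm38 (mm10). Strandedness, annotation and the handling of multiply mapped reads: not given in the sources used here; overlapping genes are therefore uncertain. Of 27179 identifiers, 25275 matched the RefSeq table of GRCm38.p6; the other 1904, with 0.399% of counts, stayed in the tests. The table had 3 empty columns and 0 columns of other samples.

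The fit used edgeR 4.0.16 under R 4.3.3, with filterByExpr, TMM scaling, and a robust quasi-likelihood model with 1 mean per group over all 16 libraries, which left 12589 genes. Two-sided F tests were adjusted by Benjamini-Hochberg over all of these, with a threshold of 0.05. Levels are CPM of TMM-scaled library sizes; marker sums use unscaled totals. Log2 differences carry the standard error (SE) of the fit. The median biological coefficient of variation was 0.0357. The fit was tested on simulated data in which few genes differed between groups, so that test cannot judge the scaling. Chi-square per degree of freedom ran from 1.62 to 3.13 over the 24 replicate pairs, so no pair was treated as a repeated library. Ch25h, removed by the filter, was tested with exact permutations.

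Genes, lists and tests were chosen with earlier results of these data known. Per-library values are given for members with a called difference of at least 1.5-fold between responders and bystanders or between LPS pool and untreated, and for Abca1, Abcg1, Nr1h3, Ch25h, Srebf2, Insig1 and Hmgcs1. Members of the neighbouring lists are named where called at 2-fold or more between the gates, at most 3 a list; some genes of these lists are not named here. The within-library ratios were chosen after values were seen.

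Alternatives were library totals alone, DESeq2 1.42.0, no low-count filter, a filter of at least 5 CPM in 4 libraries, only the groups compared, the replicate number as a block, adjusted p under 0.01 and each library left out. Fits without the 6 libraries with over 1 CPM of Stmn2, and without both bystander libraries with over 20 CPM of Il1b, were added after seeing the data.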

Additional observations from a re-analysis of the deposited data

Results flagged for a closer look

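Of 132 groups of 4 libraries, 9 held a library whose CPM lay far from the other 3 by Dixon's test at 95%; chance flags about 1 in 20. Untreated replicate 4 had Nsdhl at 18.24 CPM (others 19.75 to 19.98), Insig1 at 114.9 (119.3 to 119.8) and Scap at 69.34 (64.97 to 65.69). Untreated replicate 3 had Hsd17b7 at 15.12 (17.49 to 17.95). LPS pool replicate 4 had Srebf2 at 99.03 (107.6 to 108.6) and Soat1 at 197.7 (191.1 to 191.9). Responder replicate 2 had Nsdhl at 16.74 (18.93 to 19.32). Bystander replicate 2 had Dhcr7 at 27.15 (25.3 to 25.42), and bystander replicate 3 had Scap at 51.15 (53.62 to 54.11). Untreated 3 and 4, responder 2 and bystander 2 are among the 10 libraries with little Stmn2; LPS pool 4 and bystander 3 are not.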

How the results depend on the processing

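Under library totals alone, 135 of the 192 gene differences (32 genes, 6 comparisons) kept their call and direction, 10 lost and 16 gained a call, and 31 turned. Under all other settings 2882 of 2976 were kept, 73 lost and 21 gained a call and 0 turned; 69 sign changes of differences called under neither setting were not counted. Those that turned, as log2 differences under library totals, were Mvk -0.002 and Nr1h2 -0.072 for responder against bystander; Hmgcs1 -0.305, Mvk -0.029, Pmvk -0.148, Fdps -0.239, Fdft1 -0.082, Cyp51 -0.184, Msmo1 -0.321, Hsd17b7 -0.296, Sc5d -0.254, Insig2 -0.260, Abca1 -0.134 and Mylip -0.130 for LPS pool against untreated. For responder against untreated they were Hmgcs1 -0.329, Pmvk -0.351, Fdps -0.379, Fdft1 -0.221, Cyp51 -0.278, Msmo1 -0.339, Hsd17b7 -0.210, Sc5d -0.260, Insig2 -0.192 and Abcg1 -0.335. For bystander against untreated they were Acat2 -0.082, Hsd17b7 -0.160, Ebp -0.045, Sc5d -0.053, Soat1 -0.052 and Lpcat3 -0.019, and for bystander against pool Nr1h2 0.098. Changing the scaling shifts the differences of all genes in a comparison together. Which scaling lies nearer to the real levels was not tested.

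Among the counts of the 32 genes and of the 18 enzymes, those below moved by over 1.5 times; those of the neighbouring lists stand with their results. Synthesis enzymes higher in responders than in bystanders, 1 in the main result, numbered 0 under library totals, at adjusted p under 0.01, without the Stmn2 libraries and without the bystander libraries with Il1b, and 2 with the stricter filter and with only the groups compared. Under library totals, LPS pool against untreated had 2 genes higher and 26 lower (enzymes 0 and 16), responder against untreated 3 and 26 (enzymes 0 and 17), and bystander against untreated 15 higher with 3 enzymes lower. At adjusted p under 0.01, 3 enzymes were higher for responder against untreated. For responder against pool, genes higher (6) became 3 under library totals, with only the groups compared and at adjusted p under 0.01, and genes lower (3) became 7, 0 at adjusted p under 0.01 and 1 without the Stmn2 libraries. Apart from the shift named above, the cause was not tested.

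With each library left out, responder against bystander gave 6 to 7 genes higher and 24 lower (enzymes 1 to 2 and 15), LPS pool against untreated 10 to 11 and 12 to 14 (4 to 5 and 6 to 7), responder against untreated 11 to 13 and 12 to 13 (4 to 6 and 7), bystander against untreated 22 to 24 and 7 (13 to 15 and 1), responder against pool 3 to 6 and 1 to 3, and bystander against pool 22 to 23 and 4. The enzyme count of 2 came without bystander 1 or without responder 4. Nothing in the labels ties libraries of 1 number together, and same-number correlations of deviations ran from -0.468 to 0.605, so the numbers were not treated as pairs, and 4 of 16 libraries correlated best with their own number. Parts of the data do go with the number: the pairs of number 2 correlated at 0.180 to 0.412, and Col1a1 was highest in replicate 3 and lowest in replicate 2 of every group. With the replicate block all 192 gene differences kept their call. Depth limits Ch25h, with 2 to 43 reads summed over the 4 libraries of a group.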
